A study of Mus musculus with 6 samples.

Results

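Snap23 and 9 genes of granule release, 10 genes of the 54838 in the count tables, were followed in neutrophils from infected mouse corneas that lacked or carried Il1a. The genes were Snap23, the syntaxins Stx3, Stx4a and Stx11, the vesicle SNAREs Vamp2 and Vamp8, the syntaxin-binding protein gene Stxbp2, and Unc13d, Rab27a and Sytl1, which act before fusion. Snap23 was chosen by its CPM values, which were higher in the knockout, and by its place on chromosome 2 near Il1a, so its difference between genotypes is described here and not tested. The other 9 genes were chosen as known partners of granule release, and the question was whether they differed between genotypes too. Of the 10 genes, 9 passed the filter on low counts, and Sytl1 did not.

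The neutrophils were sorted by flow cytometry 24 h after infection of the cornea with PAO1, a laboratory strain of Pseudomonas aeruginosa. They came from Il1a-/- mice, which lack the cytokine IL-1 alpha, in 3 libraries, and from wild-type mice in 3 libraries. All 6 libraries were from infected corneas. The labels number biological replicates without naming animals, strain, age or the origin of the knockout allele. The p-values therefore describe the spread between these libraries. Each library held between 22855676 and 33626008 gene counts. Il1a had 92, 174 and 118 counts in the knockout libraries, against 136694, 192428 and 272865 in the wild-type libraries, so each library carried the Il1a level of its label. On the leading principal component, knockout replicate 2 scored 67.3, while the remaining 5 libraries scored between -32.9 and 2.1.

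Neutrophils store their weapons in ready-made granules and release them by fusing the granule with the plasma membrane or with a phagosome. Fusion is driven by SNARE proteins, in which a syntaxin and a SNAP-25 relative on the target membrane zip together with a VAMP protein on the granule. SNAP-23 is the widely expressed relative of the neuronal SNAP-25, and it sits on the plasma membrane and, in neutrophils, also on granules. Before the SNAREs engage, the small GTPase Rab27a and its effectors of the synaptotagmin-like family dock the granule, and Munc13-4, the product of Unc13d, primes it. Munc18-2, the product of Stxbp2, escorts syntaxin 11 and syntaxin 3. In humans, loss of UNC13D, STX11 or STXBP2 causes familial hemophagocytic lymphohistiocytosis and loss of RAB27A causes Griscelli syndrome, both disorders of cytotoxic granule release.

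The start regions of Snap23 and Stx11 are shown because these were by far the most abundant genes of the set and only Snap23 was chosen for a difference between genotypes. Each is 300 bases of RefSeq sequence (GRCm38.p6), from 250 bases before the annotated start to 50 bases after it, 5′ to 3′ on the gene's strand. Snap23 lies at chr2:120567421-120567720 on the plus strand and Stx11 at chr10:12964210-12964509 on the minus strand. Capitals mark matches on either strand. The CCAAT box was searched as CCAAT. The GC box was searched as GGGCGG. The TATA box was searched as TATAAA, and the core of ETS factor sites as CCGGAAG.
Snap23: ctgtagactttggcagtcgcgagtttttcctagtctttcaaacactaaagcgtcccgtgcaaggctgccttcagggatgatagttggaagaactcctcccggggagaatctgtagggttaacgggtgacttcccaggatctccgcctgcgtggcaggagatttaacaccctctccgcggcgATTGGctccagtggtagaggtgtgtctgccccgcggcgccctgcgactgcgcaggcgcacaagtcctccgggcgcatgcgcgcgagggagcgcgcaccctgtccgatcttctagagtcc
Stx11: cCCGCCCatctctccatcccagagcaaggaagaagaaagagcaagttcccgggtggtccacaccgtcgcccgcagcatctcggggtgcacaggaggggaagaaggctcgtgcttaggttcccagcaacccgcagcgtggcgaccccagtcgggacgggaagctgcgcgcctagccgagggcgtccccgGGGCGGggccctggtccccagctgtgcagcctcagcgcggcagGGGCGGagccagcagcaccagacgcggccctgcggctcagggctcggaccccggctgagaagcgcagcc
The Snap23 window held 1 match to CCAAT, which is found in 37.4% of the 32851 start windows in the table. It held 0 matches to the other 3 motifs. The Stx11 window held 3 matches to GGGCGG, found in 35.7% of all windows, and 0 to the others. TATAAA is found in 13.6% of all windows and CCGGAAG in 8.86%. Both windows were rich in CpG, with 25 in Snap23 and 27 in Stx11 against a median of 7. These matches describe the letters of the 2 windows and not the binding of a factor.

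Snap23, the SNAP-25 relative of the set, was at 1229, 1129 and 1004 CPM in the knockout libraries, against 560, 638 and 635 CPM in wild type. CPM are counts scaled to a common library size after TMM normalization, and the groups did not overlap. The means were 1121 ± 113 and 611 ± 44 CPM in knockout and wild type (SD, n = 3 each), a fold change of 1.83 with a 95% interval from 1.53 to 2.20. Every knockout library exceeded every wild-type library by more than the spread within either genotype. These are the values by which Snap23 was chosen. Of the 11924 genes in the edgeR fit, 12 (0.101%) had an adjusted p below 0.05, 9 of them higher (0.0755%) and 3 lower (0.0252%) in the knockout. Snap23 was among the 9, and nothing is read from that here. Snap23 (ENSMUSG00000027287) spans chromosome 2 from 120567671 to 120601255 on the plus strand, 8.70 Mb from Il1a. None of its annotated exons overlaps an exon of another gene, and the summed strand columns came to 39113, 36612 and 23000 counts in the knockout and 14957, 19815 and 19729 in wild type, against unstranded counts of 39105, 36606 and 22995 and of 14957, 19814 and 19729. The only close copy of Snap23 among annotated transcripts, at 94.4% identity over 629 bases, was the processed pseudogene Gm6615 on chromosome 5. Gm6615 had 0 CPM in the 3 knockout libraries and in wild-type replicate 3, and 0.037 and 0.064 CPM in wild-type replicates 1 and 2.

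**Figure D1:**
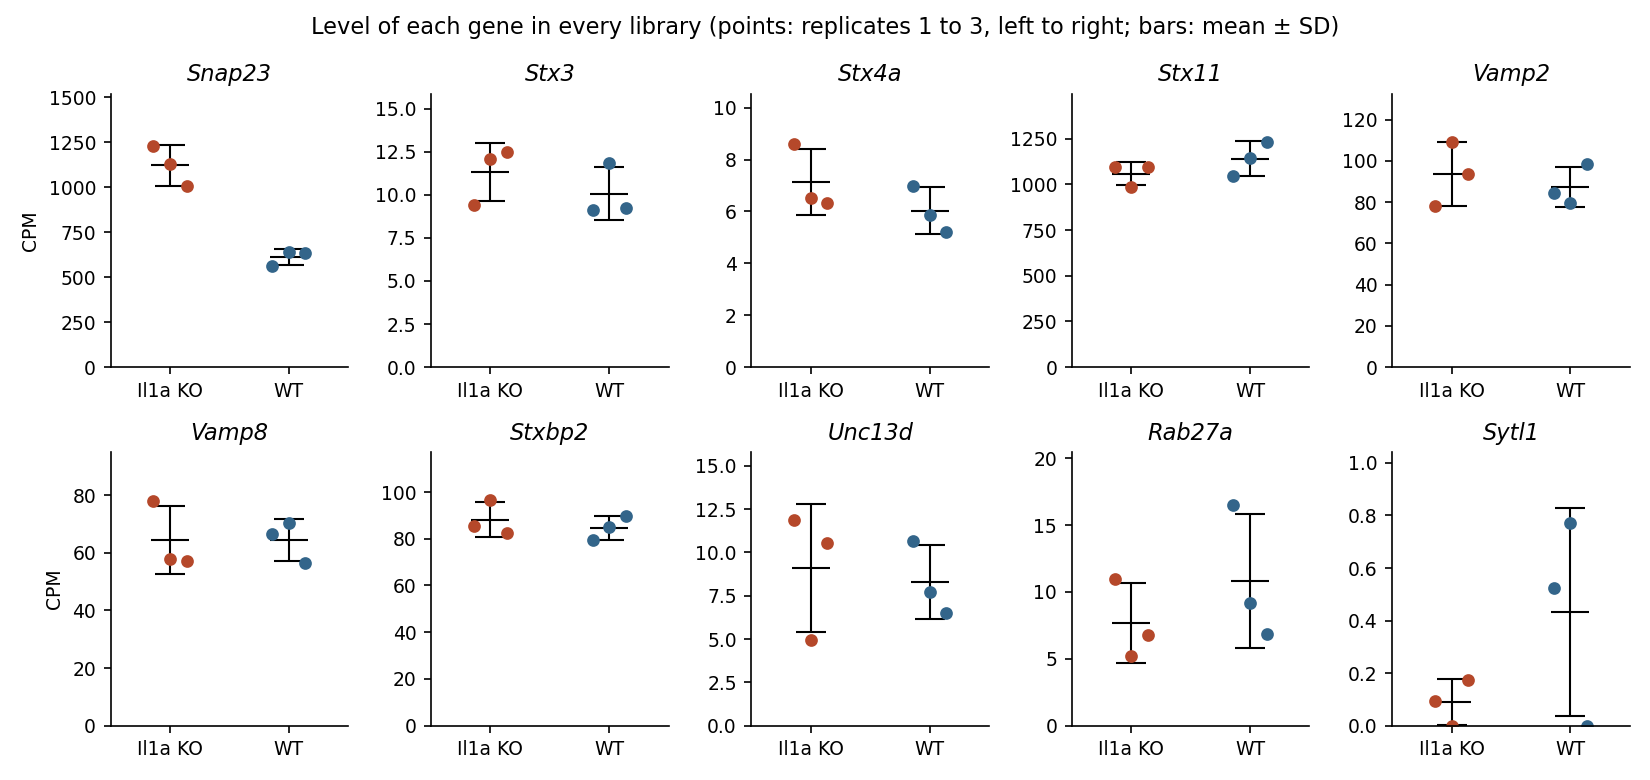
CPM of the 10 genes in each library (vertical axis, from 0, a separate scale per gene), with Il1a knockout in red and wild type in blue; points are replicates 1 to 3 and bars are mean ± SD. Only for Snap23, which was picked for it, do the 3 knockout points (1004 to 1229 CPM) all lie above the 3 wild-type points (560 to 638 CPM).

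None of the partners passed the test. Of the 9, 8 were tested and 0 passed in either direction, with edgeR adjusted p-values from 0.94 to 1.00, where 0.101% of all tested genes passed. At an unadjusted p under 0.05 the count was again 0 of 8, against 5.99% of all tested genes. In none of the 8 did the groups separate, where 11.6% of all tested genes did. With only 8 genes, counts of 0 lie close to these shares, so they do not set the partners apart from other genes. Their log2 fold changes, knockout over wild type, ran from -0.49 to 0.25 with a median of 0.08, beside a median of 0.00 over all tested genes. Each of the 8 partners lies on a chromosome other than 2, and so does Sytl1.

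Among the syntaxins, Stx11, which works in granule release of cytotoxic lymphocytes and platelets, was the abundant member. Stx11 was at 1095, 987 and 1095 CPM in the knockout, against 1044, 1146 and 1232 CPM in wild type. The groups overlapped, and the log2 fold change was -0.11 with a 95% interval from -0.35 to 0.14 (edgeR adjusted p = 0.95). Stx3 has been linked to release from gelatinase and specific granules. It was at 9.40, 12.1 and 12.5 CPM in the knockout, against 9.13, 11.9 and 9.23 CPM in wild type. One wild-type library lay among the knockout values, and the interval of the log2 fold change ran from -0.28 to 0.61 (edgeR adjusted p = 0.97). Stx4a encodes syntaxin 4, a plasma membrane partner of SNAP-23. It was at 8.61, 6.51 and 6.33 CPM in the knockout, against 7.0, 5.86 and 5.21 CPM in wild type. Its groups overlapped too, with a log2 fold change of 0.25 and an interval from -0.26 to 0.76 (edgeR adjusted p = 0.94).

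Both granule-side SNARE genes overlapped between the genotypes. Vamp8, the R-SNARE of granule release in many secretory cells, was at 77.9, 57.9 and 57.2 CPM in the knockout, against 66.5, 70.4 and 56.4 CPM in wild type. Its log2 fold change was 0.00 with a 95% interval from -0.35 to 0.34 (edgeR adjusted p = 1.00). Vamp2, which has been found on specific and gelatinase granules, was at 78.3, 109 and 93.5 CPM in the knockout, against 84.2, 79.4 and 98.3 CPM in wild type. Its interval ran from -0.23 to 0.43 (edgeR adjusted p = 0.97). For Vamp8 a knockout library was the highest and a wild-type library the lowest of the 6, and for Vamp2 both extremes were knockout libraries.

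The docking, priming and escort genes did not pass either. Stxbp2 was at 85.3, 96.7 and 82.6 CPM in the knockout, against 79.3, 84.9 and 89.7 CPM in wild type. Its interval was the narrowest of these 3 genes, with a log2 fold change of 0.06 and an interval from -0.21 to 0.33 (edgeR adjusted p = 0.98). Unc13d was at 11.9, 4.93 and 10.5 CPM in the knockout, against 10.7, 7.73 and 6.50 CPM in wild type. Rab27a was at 11, 5.21 and 6.81 CPM in the knockout, against 16.5, 9.21 and 6.85 CPM in wild type. These 2 genes varied by more than 2-fold between libraries of 1 genotype, and knockout replicate 2, the library with the outlying principal component score, was the lowest of the 6 for both. Their intervals were accordingly wide, from -0.58 to 0.85 for Unc13d and from -1.28 to 0.29 for Rab27a (edgeR adjusted p = 0.99 and 0.94). A rise of Rab27a as large as 1.23-fold, or a fall to 0.41 of the wild-type level, lies within its interval, so neither is excluded at this spread. Rab27a shares 149 of its 3879 exon bases with the processed pseudogene Gm27186, whose reads cannot be told apart there.

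Sytl1, the synaptotagmin-like protein that binds Rab27a and p67phox in human neutrophils, was near the counting floor. It had 3, 0 and 4 counts in the knockout libraries, against 14, 24 and 0 in wild type. A floor of 3 counts stands for 0.093 CPM in knockout replicate 2 and 0.096 CPM in wild-type replicate 3. The 95% upper limit of a count of 0 is slightly higher, at 3.69 counts, counting error only. Wild-type replicates 1 and 2 were the highest libraries, at 0.52 and 0.77 CPM, and the groups overlapped. Without a filter on low counts, Sytl1 had an edgeR adjusted p of 0.79.

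**Figure D2:**
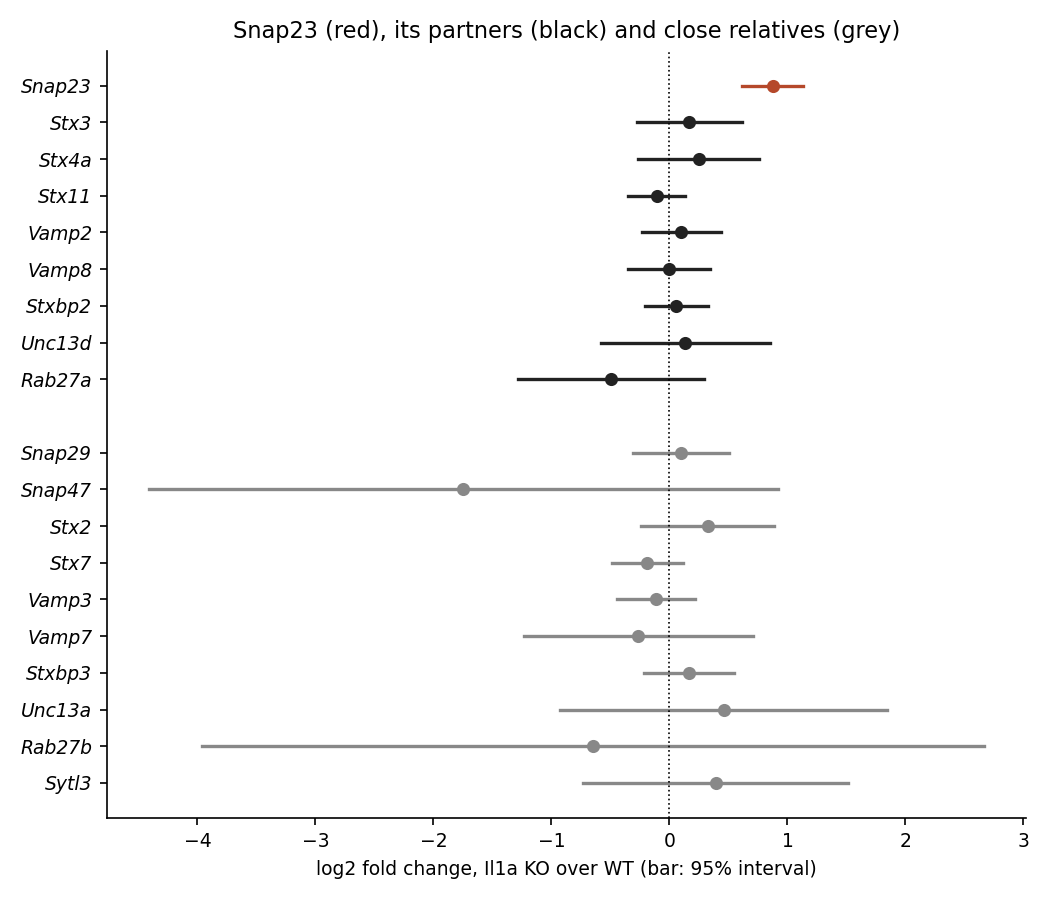
Log2 fold change in CPM, Il1a knockout over wild type (horizontal axis), with 95% intervals, for Snap23 (red), its 8 tested partners (black) and 10 tested close relatives (grey). Snap23 is at 0.88, while the partners lie between -0.49 and 0.25 with intervals that all include 0; the wide grey bars belong to genes with few counts.

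Levels can be set side by side only per length of exon. Stx11 and Snap23 led the set by a wide margin. In CPM per kb of exon, Snap23 was at 261 ± 26 in the knockout and 142 ± 10 in wild type, and Stx11 at 252 ± 15 and 271 ± 22 (SD, n = 3 each). In wild type the lowest Stx11 library exceeded the highest Snap23 library, whereas in the knockout the ranges overlapped. Per kb, Snap23 stood at 1.10, 1.12 and 0.90 times Stx11 in the knockout, against 0.53, 0.55 and 0.50 times in wild type. The ratio and the order of these genes restate the difference by which Snap23 was chosen. Vamp8 (27.8 ± 5.1 and 27.9 ± 3.1 CPM per kb in knockout and wild type), Vamp2 (24.6 ± 4.0 and 22.9 ± 2.6) and Stxbp2 (21.2 ± 1.8 and 20.4 ± 1.3) formed a middle tier, in which neighbours in the order overlapped. Stx4a, Rab27a, Stx3 and Unc13d formed a low tier with means between 1.76 and 3.02 CPM per kb, and their ranges overlapped as well. Sytl1 came last, with 0.036 ± 0.035 and 0.17 ± 0.16 CPM per kb in knockout and wild type. The lengths are merged annotated exons, which overstate the length of a gene that uses a short isoform.

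**Figure D3:**
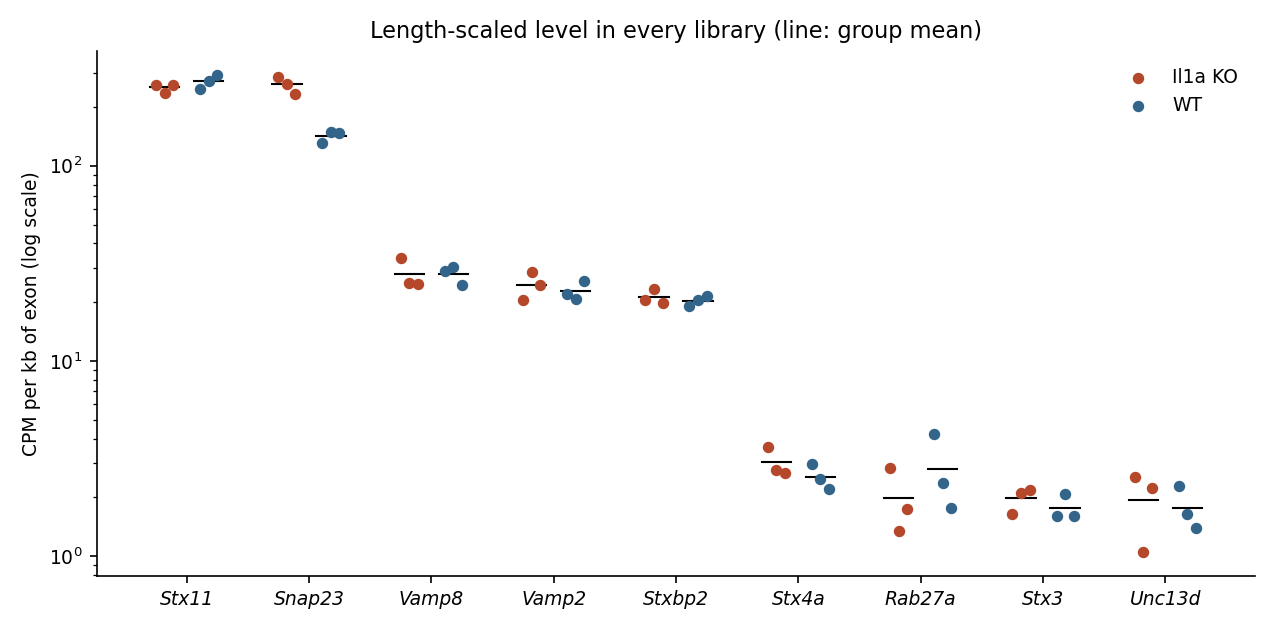
CPM per kb of merged exon (vertical axis, log scale) in each library for the 9 tested genes, ordered by mean, with Il1a knockout in red, wild type in blue and lines at group means. Stx11 and Snap23 sit above 130 CPM per kb in all libraries, Vamp8, Vamp2 and Stxbp2 between 19 and 34, and the rest below 5; Sytl1, at 0 in 2 libraries, is not drawn.

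Close relatives were set beside the members. Of the SNAP-25 family, Snap23 made up 98.1% ± 0.4 in the knockout and 96.8% ± 0.6 in wild type, in CPM per kb over Snap23, Snap25, Snap29 and Snap47. The difference between these shares carries the one by which Snap23 was chosen. Snap25 had 0 counts in every library, where the floor of 3 counts stands for 0.13 CPM in the shallowest one. Snap29, which serves autophagosome and endosome fusion, was at 4.90 ± 0.60 and 4.57 ± 0.74 CPM per kb. The endosomal syntaxin gene Stx7 was at 20.2 ± 2.7 and 23.1 ± 2.1 CPM per kb.

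The VAMP genes were shared more evenly. Of the summed CPM per kb of Vamp2, Vamp3, Vamp7 and Vamp8, Vamp8 held 36.0% ± 5.0 in the knockout and 36.0% ± 4.2 in wild type. Vamp3, the recycling endosome form, held 31.2% ± 3.1 and 33.4% ± 3.4, and Vamp2 32.1% ± 6.4 and 29.6% ± 3.7. Vamp7, reported on azurophil and specific granules in humans, held 0.80% ± 0.22 and 0.96% ± 0.40. Stxbp3, a relative of Stxbp2 that binds syntaxin 4, was at 5.62 ± 0.89 and 5.02 ± 0.76 CPM per kb. Unc13a (0.091 ± 0.061 and 0.065 ± 0.031 CPM per kb), Rab27b (0.021 ± 0.037 and 0.034 ± 0.035) and Sytl3 (0.45 ± 0.26 and 0.34 ± 0.07) were lower than Unc13d and Rab27a, and Unc13b and Sytl2 were below 0.01 CPM per kb in both genotypes. Sytl3 was nonetheless above its relative Sytl1 (0.036 ± 0.035 and 0.17 ± 0.16 CPM per kb) in each library, though Sytl1 had few counts.

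None of the wider machinery passed either. A list of 81 further genes held SNAREs, their disassembly factors, SM proteins, Rab and priming genes, calcium sensors and exocyst subunits, and 54 of them were tested. Of these 54, 0 passed in edgeR, and 0 had an unadjusted p under 0.05, where 5.99% of all tested genes did. The groups separated in 0 genes that were higher in the knockout and in 2 that were lower (Scfd1 and Exoc2), where 6.12% and 5.48% of all tested genes separated. The median log2 fold change was -0.03, and among the 34 genes averaging 5 CPM or more the values ran from -0.44 to 0.26. For 33 of those 34 the 95% interval lay within a 2-fold change either way.

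The 6 genes with the smallest p are given next, 5 of them with a negative log2 fold change and none past the threshold. The exocyst subunit Exoc6 had the smallest p and was at 13.1, 7.25 and 11.1 CPM in the knockout, against 16.5, 13.04 and 13.2 CPM in wild type (log2 fold change -0.44, edgeR adjusted p = 0.87). Sec22b, an R-SNARE of transport from the endoplasmic reticulum, was at 63.6, 62.4 and 73.8 CPM in the knockout, against 64.7, 84.3 and 92.1 CPM in wild type (log2 fold change -0.27). Scfd1, the SM protein of the same step, had a log2 fold change of -0.32 and Gosr2, a Golgi Q-SNARE, -0.23. Napg, a SNARE disassembly adaptor, had -0.33, and Vamp1 had 0.62 at a level under 3 CPM. Each of these 5 had an edgeR adjusted p of 0.90 or 0.91.

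Genes that the granules carry were looked at beside the release machinery. Of 22 cargo genes, 17 were tested and 0 passed in edgeR, where 0.101% of all tested genes did. The unadjusted p was under 0.05 for 2 of the 17, where it was for 5.99% of all tested genes, and the groups separated in 0 of the 17, against 11.6%. The first of these 2, the chitinase-like gene Chil3, was at 83.1, 35.1 and 27.7 CPM in the knockout, against 80.9, 100.4 and 97.3 CPM in wild type (edgeR adjusted p = 0.79). The other, the NADPH oxidase subunit gene Cybb, was at 132, 136 and 152 CPM in the knockout, against 84.8, 85.1 and 134 CPM in wild type (edgeR adjusted p = 0.78). Both overlapped between genotypes. The azurophil protease and peroxidase genes were too low to test, with Mpo at 0.031, 0 and 0.087 CPM in the knockout, against 0.45, 0.032 and 0 CPM in wild type. The most abundant cargo genes by role overlapped between genotypes. Lcn2, of specific granules, was at 8222, 8799 and 9526 CPM in the knockout, against 9012, 9402 and 8918 CPM in wild type. Slc11a1, of gelatinase granules, was at 2040, 2378 and 2480 CPM in the knockout, against 2054, 2339 and 2604 CPM in wild type. Cd14, placed with secretory vesicles, was at 28904, 28985 and 29335 CPM in the knockout, against 28097, 34509 and 35962 CPM in wild type.

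Several neighbours of Snap23 on chromosome 2 were also higher in the knockout. The 4 nearest tested genes on each side were Vps39, Tmem87a, Ganc and Zfp106 before it and Lrrc57, Haus2, Stard9 and Cdan1 after it. In 6 of these 8 genes every knockout library lay above every wild-type library, where 6.12% of all tested genes did. This stretch was known to differ from earlier results on the same data, so the counts describe it and are no independent evidence. Zfp106, which encodes a zinc finger RNA-binding protein and is the nearest tested gene before Snap23, was at 201, 218 and 158 CPM in the knockout, against 104, 74.6 and 108 CPM in wild type. Lrrc57, 2.98 kb beyond the other end of Snap23, was at 29.3, 34.5 and 30.1 CPM in the knockout, against 10.9, 10.4 and 16.9 CPM in wild type. Zfp106 had a log2 fold change of 1.01 (edgeR adjusted p = 0.082) and Lrrc57 of 1.30 (edgeR adjusted p = 0.064), beside 0.88 for Snap23, and these differences between genes were not tested.

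Among these nearest genes, those that passed the test were Haus2, Stard9 and Tmem87a. Haus2, of the spindle-organising augmin complex, had a log2 fold change of 2.91, and Stard9, a mitotic kinesin gene, 3.16. On the other side Tmem87a had 2.29. The edgeR adjusted p-values were 7.923e-05 for Haus2, 0.00117 for Stard9 and 0.00823 for Tmem87a. Vps39, a subunit of the HOPS complex that tethers late endosomes and lysosomes, was at 11.4, 19.0 and 17.7 CPM in the knockout, against 7.86, 5.21 and 6.43 CPM in wild type (log2 fold change 1.30, edgeR adjusted p = 0.14). Ganc and Cdan1, both under 2 CPM, overlapped between genotypes. Within 1 Mb of Snap23, 33 other genes were tested. The groups separated in 11 that were higher (33.3%) and 5 that were lower (15.2%) in the knockout. Over all tested genes these shares were 6.12% and 5.48%. Of the 33, 4 passed in edgeR, all higher, where 0.0755% of all tested genes did. Beside Haus2, Stard9 and Tmem87a this was Ehd4 (log2 fold change 1.69, edgeR adjusted p = 0.019). The median log2 fold change over the 33 was 0.20. Among genes of chromosome 2 more than 15 Mb from Il1a, the groups separated in 49 higher and 37 lower of 752 tested genes, that is 6.52% and 4.92%. Of these 752, 0 passed in edgeR. Genes outside both windows were not counted, and Bloc1s6, which lies there and is described below, passed (edgeR adjusted p = 0.028).

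**Figure D4:**
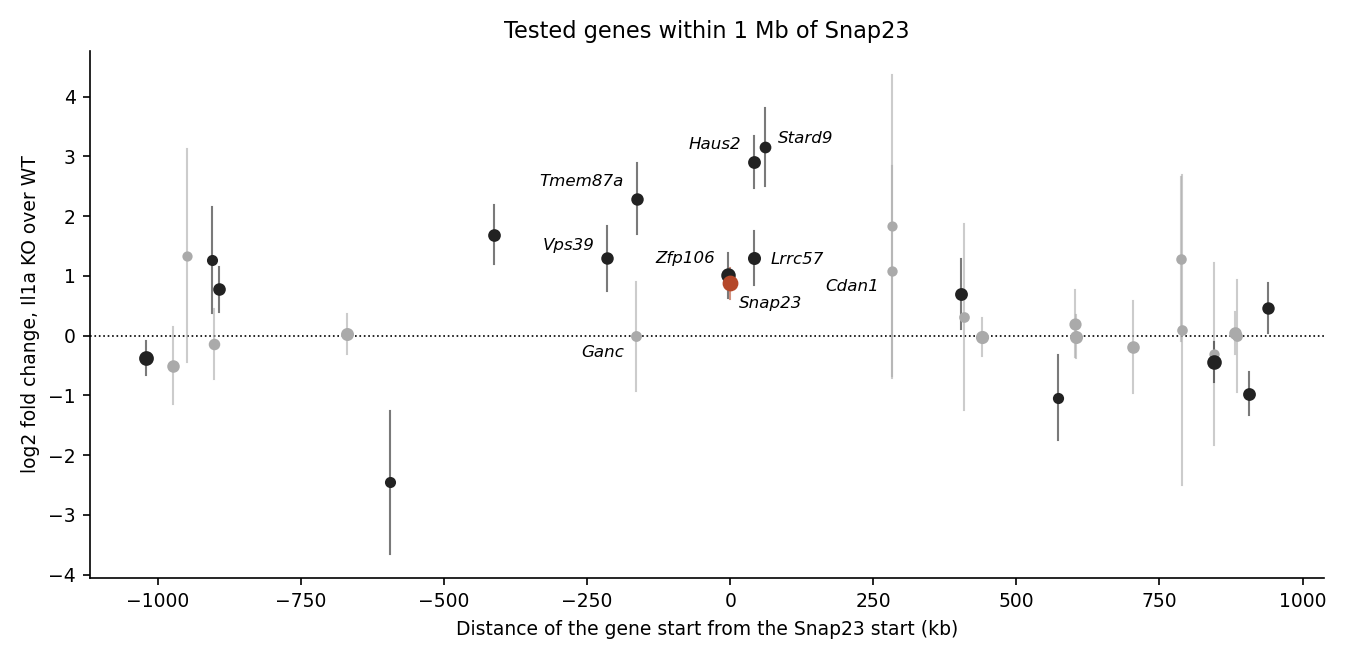
Log2 fold change, Il1a knockout over wild type (vertical axis), with 95% intervals, against distance of the gene start from the Snap23 start in kb, for the 34 tested genes within 1 Mb, Snap23 in red. Black points are genes whose genotypes do not overlap in CPM and grey points overlap; 6 of the 8 nearest genes, named with Snap23, are black and above 0. Point size grows with the mean CPM.

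Other machinery genes on chromosome 2 are given for comparison, and those named here that were tested did not pass. Snap25, 7.40 Mb from Il1a on the other side, had 0 counts throughout and was not tested. Napb, 19.4 Mb from Il1a, was at 0.53, 0.96 and 0.31 CPM in the knockout, against 0.037, 0.032 and 0.48 CPM in wild type, and overlapped. Madd, which encodes an exchange factor of Rab27a, lies 38.1 Mb from Il1a and had a log2 fold change of -0.03 (edgeR adjusted p = 0.99). Stx16, a syntaxin gene of the Golgi and endosomes, lies 44.8 Mb from Il1a and had a log2 fold change of 0.16 (edgeR adjusted p = 0.97).

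Across the transcriptome, the genes most like Snap23 were found by the mean absolute difference in log2 CPM over the 6 libraries after each gene's mean was subtracted, among 5662 genes averaging 5 CPM or more. The nearest was Plcb3, a phospholipase C gene on chromosome 19, at a difference of 0.099. Plcb3 was at 27.8 ± 1.5 CPM in the knockout and 16.0 ± 1.9 CPM in wild type (SD, n = 3 each). It was followed by the helicase gene Helb (0.13), Bloc1s6 (0.14), Rtf1 (0.15) and the lysosomal protease gene Lgmn (0.15). Bloc1s6, whose product pallidin builds lysosome-related organelles and binds the SNARE syntaxin 12, and Rtf1, of RNA polymerase elongation, are on chromosome 2 as well. Rtf1 lies at -832 kb from Snap23, among the separated genes of the 1 Mb window above. Bloc1s6 starts at 122738503, beyond that window but within 15 Mb of Il1a. Of these nearest profiles only Bloc1s6 passed (edgeR adjusted p = 0.028), where 0.0755% of all tested genes passed as higher. A search for likeness to Snap23 picks genes that are higher in the knockout, and the adjusted p does not allow for that choice. Bloc1s6 was at 36.1 ± 1.4 and 16.6 ± 2.6 CPM in knockout and wild type, and Rtf1 at 16.6 ± 1.9 and 9.68 ± 0.35 CPM. Stx12 itself had a log2 fold change of -0.12 (edgeR adjusted p = 0.97). Likeness was measured on the same libraries by which Snap23 was chosen.

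Markers of other cells were read beside these values, since Stx11, Unc13d and Rab27a also serve lymphocytes and platelets and fewer cells of a type cannot be told apart from less RNA per cell in sorted bulk samples. The 12 neutrophil markers summed to between 47551 and 50776 CPM in the knockout and between 49703 and 54613 CPM in wild type. Monocyte and macrophage markers summed to 375, 397.9 and 365.5 CPM in the knockout, against 306.1, 303 and 307.5 CPM in wild type, and 7 of the 16 lay higher in every knockout library and 1 lower, where 6.12% and 5.48% of all tested genes did. Trem2, 1 of the 7, was too low to test. Csf1r, also of the 7, was the largest term of the sums, at 230, 196 and 190 CPM in the knockout, against 188, 181 and 164 CPM in wild type. C1qb, a low gene of the 7, was at 2.11, 8.29 and 4.02 CPM, against 0.97, 1.26 and 0.74 CPM, with knockout replicate 2 the highest. The 1 lower gene was Ly6c2, at 27.9, 21.8 and 29.9 CPM in the knockout, against 32.9, 31.6 and 33.3 CPM in wild type. Of the 13 of this list that were tested, 0 passed in edgeR, where 0.101% of all tested genes did. Of that list Fcrls was at 0 in at least 5 libraries. The sums did not overlap between genotypes, and their part in Snap23 was not tested. The 10 cytotoxic lymphocyte markers summed to between 0.47 and 0.71 CPM in the knockout and between 1.05 and 1.51 CPM in wild type, with Cd3e, Cd8a, Ncr1, Prf1 and Nkg7 among the 8 at 0 in every library. The 8 platelet and erythroid markers summed to between 7.80 and 51.1 CPM in the knockout and between 8.65 and 35.1 CPM in wild type, with Gp1bb at 0. The 8 mast cell and basophil markers summed to between 3.92 and 8.74 CPM and between 8.43 and 10.3 CPM, with Fcer1a, Ms4a2, Cma1 and Mcpt8 at 0. Dendritic cell markers (293 to 384 and 252 to 310 CPM), B cell markers (0.26 to 0.49 and 0 to 0.16 CPM, with Cd79b and Pax5 at 0), corneal epithelial markers (25.7 to 112 and 19.4 to 138 CPM) and stromal and endothelial markers (43.4 to 84.2 and 57.5 to 80.7 CPM) are given for knockout and wild type in that order, and the part of each in these results was not tested.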

How the data were processed

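RNA of sorted corneal neutrophils was measured in 3 Il1a knockout and 3 wild-type libraries. Per the labels' protocols, RNA was column-purified and libraries were made with SMART-Seq v4, a kit without strand marking. Tools in the submitters' processing notes are STAR 2.7.8a, Trimmomatic 0.39 and FastQC 0.11.9, with builds GRCm38 and mm10. No source used here gives the annotation release or count settings. The values deposited by the authors are raw whole-number counts per gene, with an unstranded column, used here, and 2 strand columns. GENCODE M21 gave symbols, positions and exon lengths for 54809 of 54838 genes.

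Genes were kept by edgeR's expression filter by group (11924 genes, 99.9% of counts) and tested with edgeR 4.0.16 (TMM, robust quasi-likelihood, limma 3.58.1, R 4.3.3), knockout over wild type, with Benjamini-Hochberg adjustment over all tested genes and a threshold of 0.05. Intervals are 95% and come from the fit. Log2 CPM used a prior count of 3. The procedure was tested on simulated data. An exact permutation test of 3 against 3 cannot go below a two-sided p of 0.1 and was not used. Copies were searched with blastn 2.17.0 (at least 90% identity over 300 bases). Start windows are from RefSeq, with 8 of the 10 genes present, and 9 windows in all; Vamp2 and Unc13d have no entry in that table. Figures used matplotlib 3.10.9.

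The 10 genes, the lists and the tests were chosen with earlier results of these data known. Genes named were the 10, Il1a, the 6 machinery genes with the smallest p, close relatives of the 10, the 4 tested neighbours of Snap23 per side, the 5 nearest profiles and the most abundant cargo gene per role. Stx12, Mpo, Gm6615, Exoc2, Chil3, Cybb, Elane, Mmp8, Ehd4, Trem2, Csf1r, C1qb, Ly6c2 and some machinery genes on chromosome 2 were added after their values were seen. The alternatives were DESeq2 size factors, library size alone, no filter, 5 CPM in 3 libraries, a replicate block, the summed strand columns, limma-voom, DESeq2 1.42.0 and each library left out.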

Additional observations from a re-analysis of the deposited data

How the results depend on the processing

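Over 14 alternatives the log2 fold change of Snap23 stayed between 0.80 and 0.95. These fits reuse the libraries by which Snap23 was chosen, so the range describes the processing and adds no support for the difference. The count of partners that passed was 0 in all 14, and so was that of the 81 machinery genes. Rab27a, Stx11, Stx3 and Stx4a kept their sign in all 14, but single libraries moved their size. With each library omitted in turn, Rab27a ranged from -0.8557 (without knockout replicate 1) to -0.0782 (without wild-type replicate 1), Stx4a from 0.0864 to 0.3557, Stx3 from 0.0889 to 0.3005 and Stx11 from -0.1829 to -0.0504. Signs turned in Vamp8, Vamp2, Stxbp2 and Unc13d, with an adjusted p between 0.9623 and 0.9996 in each such fit. Vamp8 was 0.0551 with library size alone, 0.0115 with the filter at 5 CPM and 0.0027 with the summed strand columns. With library size alone the median over all tested genes was 0.0604, so that turn follows the shift of all genes. When each library was omitted in turn, log2 fold changes ranged from -0.1705 to 0.0745 for Vamp8, from -0.0333 to 0.2061 for Vamp2, from -0.0223 to 0.1033 for Stxbp2 and from -0.1129 to 0.4256 for Unc13d. Of the cargo genes, 2 passed without a filter (Chil3, lower, and Elane, whose 89 counts were all in wild-type replicate 3) and 2 without knockout replicate 1 (Mmp8 and Chil3, both lower). Over all genes the count of 12 became 185 without a filter, 21 with the filter at 5 CPM, 69 by DESeq2, and 7 to 24 with a library left out (7 without wild-type replicate 1 or 2, 24 without knockout replicate 1); the cause was not tested. The replicate block called 20 genes, none of them a partner. The numbers were not taken as pairs, because the labels do not say that they mark a shared animal or day. Same-numbered libraries correlated in their deviations at 0.14, 0.057 and 0.0034, and libraries of unlike number at -0.188 to 0.145. With 3 libraries per genotype these values cannot decide whether the numbers mark pairs. The depth and spread leave changes in Rab27a, Unc13d and Sytl1 poorly bounded.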
